A study of Homo sapiens with 12 samples.

Results

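The 10 genes described here encode the NF-kB subunits NFKB1, NFKB2, REL, RELA and RELB, and 5 genes known as NF-kB feedback targets, NFKBIA, NFKBIZ, TNFAIP3, BIRC3 and ZC3H12A. They were chosen by gene symbol from the 27106 rows of the deposited table, and all 10 were found. Poly(A) RNA had been sequenced from IMR90 hTERT cells, human lung fibroblasts that carry the catalytic subunit of telomerase, and all groups also carried a tamoxifen-inducible oncogenic Ras fusion, which drives the cells into senescence, a lasting arrest of division. Control cells expressed a scramble hairpin RNA (shScr, labelled WT) and depleted cells one that targets the receptor of interleukin-1 (shIL1R, labelled IL1R KD). Hairpins were induced with 0.5 ug/ml doxycycline, and cells then received 200 nM tamoxifen or ethanol. Both genotypes were collected growing at day 0, at the start of the secretory phenotype at day 4 and senescent at day 10 of Ras induction, with 2 libraries in each of the 6 groups. The series text names 2 independent hairpins against the receptor, but the labels do not say which library carries which one, nor whether replicates were separate cultures, so p-values measure the spread between these libraries, part of which may be technical.

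NF-kB is a family of dimeric transcription factors that wait in the cytoplasm, bound by IkB inhibitors. Stimuli such as interleukin-1, tumour necrosis factor and bacterial products activate the IkB kinase complex, the inhibitor is degraded, and the dimers enter the nucleus. Among the genes they switch on are brakes on the pathway itself: the inhibitor IkB-alpha (NFKBIA), the ubiquitin-editing enzyme TNFAIP3 and the ribonuclease ZC3H12A, which degrades inflammatory mRNAs. In senescent fibroblasts NF-kB is a main driver of the senescence-associated secretory phenotype (SASP), the release of cytokines, chemokines and proteases, and surface interleukin-1 alpha acting through its receptor is one known input to it.

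Promoter sequences are shown first because several of these genes are known targets of NF-kB itself, which binds a short DNA element. RefSeq promoter windows (GRCh38.p14) run from 250 bases before to 50 bases after an annotated transcript start, and 9 of the 10 genes had one or more, 14 windows in all. RELB had no entry. They were searched on both strands for the canonical NF-kB decamer consensus, and matches that overlap, as on the 2 strands of a near-palindrome, were each counted. A match was present in 7 of the 9 genes (77.8%) and in 9 of the 14 windows (64.3%), against 13.3% of 27305 genes and 11.3% of 35116 windows of the same length in the whole reference. Known targets are among the members, so these shares are not independent of the choice of genes. Of the pathway lists used below, all 3 other IkB genes with a window held a match. So did 57.1% of 21 other targets, 33.3% of 18 negative regulators and 13.6% of 22 upstream kinases and adaptors. Below are the 250 upstream bases for the 5 feedback genes and for NFKB2, the subunit with the most matches, read 5′ to 3′ along the gene's strand, with matches to the consensus in capitals. A match describes letters and is not a measured binding site.

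TNFAIP3, chr6:137867009-137867258, plus strand: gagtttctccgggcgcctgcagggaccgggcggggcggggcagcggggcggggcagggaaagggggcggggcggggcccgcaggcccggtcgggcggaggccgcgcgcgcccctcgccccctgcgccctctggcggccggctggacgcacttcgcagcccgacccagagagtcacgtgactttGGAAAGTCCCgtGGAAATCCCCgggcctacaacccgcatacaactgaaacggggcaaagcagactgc

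BIRC3, chr11:102317234-102317483, plus strand: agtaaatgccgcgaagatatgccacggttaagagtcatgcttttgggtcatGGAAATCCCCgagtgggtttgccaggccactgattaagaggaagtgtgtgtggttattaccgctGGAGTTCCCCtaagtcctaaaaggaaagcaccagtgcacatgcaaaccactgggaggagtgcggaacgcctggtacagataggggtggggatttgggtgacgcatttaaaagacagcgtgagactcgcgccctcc

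NFKBIZ, chr3:101827740-101827989, plus strand: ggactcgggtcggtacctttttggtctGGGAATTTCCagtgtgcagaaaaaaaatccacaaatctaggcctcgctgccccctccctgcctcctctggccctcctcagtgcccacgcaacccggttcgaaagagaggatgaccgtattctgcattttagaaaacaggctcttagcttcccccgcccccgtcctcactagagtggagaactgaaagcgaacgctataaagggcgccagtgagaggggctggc

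NFKBIA, chr14:35404750-35404999, minus strand: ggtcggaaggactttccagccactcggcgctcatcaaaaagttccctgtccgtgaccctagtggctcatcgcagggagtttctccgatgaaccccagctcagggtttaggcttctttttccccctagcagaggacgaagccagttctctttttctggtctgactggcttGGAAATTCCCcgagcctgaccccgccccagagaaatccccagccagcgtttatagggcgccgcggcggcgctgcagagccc

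NFKB2, chr10:102394328-102394577, plus strand: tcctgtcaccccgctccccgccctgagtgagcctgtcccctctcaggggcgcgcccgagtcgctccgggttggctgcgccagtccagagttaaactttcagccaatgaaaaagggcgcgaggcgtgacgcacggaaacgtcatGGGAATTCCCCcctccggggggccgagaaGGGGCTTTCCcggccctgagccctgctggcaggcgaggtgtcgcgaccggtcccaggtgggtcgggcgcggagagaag

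ZC3H12A, chr1:37474330-37474579, plus strand: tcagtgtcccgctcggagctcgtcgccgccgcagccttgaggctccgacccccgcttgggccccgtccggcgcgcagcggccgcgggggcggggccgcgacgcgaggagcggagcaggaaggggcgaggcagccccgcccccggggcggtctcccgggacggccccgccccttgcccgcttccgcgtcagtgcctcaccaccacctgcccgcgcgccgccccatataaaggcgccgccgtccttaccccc

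TNFAIP3 held 2 matches close together, starting 67 and 55 bases before the transcript start, and BIRC3 held 2, starting 199 and 135 bases before it. In NFKBIA the match began 81 bases upstream. NFKBIZ has 2 annotated starts, and the window printed had its match 223 bases upstream. NFKB2 has 3 annotated starts, of which the second, printed above, held 3 matches, including a pair overlapping at 107 and 106 bases. The single window of ZC3H12A and both windows of RELA held none, which says only that these letters were not found there. NFKB1 (49 bases upstream) and REL (47 and 46 bases) held matches as well.

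**Figure D1:**
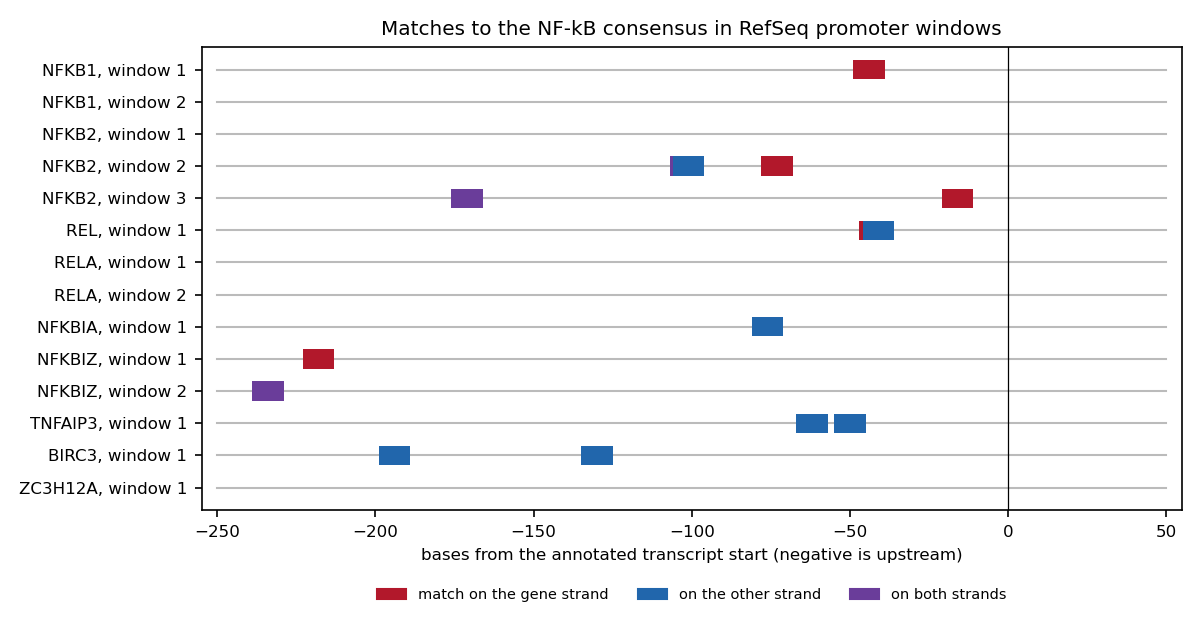
Positions of matches to the NF-kB consensus along 14 RefSeq promoter windows of 9 genes, as bases from the annotated transcript start, coloured by strand. Overlapping matches in NFKB2 and REL appear as 1 wider block, and both RELA windows, ZC3H12A, the first NFKB2 window and the second NFKB1 window hold none.

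The libraries held 24140324 to 30127727 reads recovered from the deposited values, and 1 read was worth 0.835 to 1.20 normalized counts. The lowest value of any member was 37 reads (REL, 37 to 155 reads over the libraries). IL1R1, the hairpin's target, did not overlap between genotypes at any time, at 731 and 378 normalized counts against 1509 and 1552 at day 0, 272 and 86.4 against 1546 and 1423 at day 4, and 295 and 280 against 1580 and 1240 at day 10. The IL1R1 difference was called at days 4 and 10 but not at day 0 (-1.54 ± 0.42, limma adjusted p = 0.281). The IL1R1 call at day 4 was lost without either library of shScr day 0 or shScr day 4 (0.0636 to 0.144), and the call at day 10 without shScr day 10 replicate 2 (0.0708). All 11 fibroblast markers listed (such as COL1A1 and VIM) were expressed in every library, but their levels moved. From day 0 to day 10, 6 were called lower and 0 higher in shScr cells (median -0.57). In shIL1R cells 6 were lower and 2 higher (median -0.55). Of all tested genes 31.3% and 30.3% were called lower in these comparisons. Between genotypes at day 10, 2 were higher and 0 lower in shIL1R cells, against 4.37% and 4.85% of all tested genes. Some defining markers of other cell types were at or near 0: PTPRC at most 3 reads, CD3E and CDH5 at 0 in all 12 libraries, CDH1 at most 2 reads and PECAM1 and EPCAM at most 11. Other genes of the marker lists were expressed and moved with the day. The summed level of 10 leukocyte markers ran from 3116 to 3369 normalized counts in shScr day 0 and from 7906 to 9604 in shScr day 10, nearly all of it CD68 and CD4, and from 6541 to 9401 in shIL1R day 10. LAPTM5 of that list was at 0.919 ± 1.30 normalized counts (SD, n = 2) in shScr day 0, 131 ± 15.6 in shScr day 10 and 21.97 ± 21.5 in shIL1R day 10, and all 3 tested leukocyte markers were called higher at day 10 in both genotypes. Sums over 8 epithelial and 8 endothelial markers ranged from 2286 to 3364 and from 1243 to 3317 and were mostly KRT18 and TEK. Of 6 tested endothelial markers 3 (TIE1, KDR and VWF) were higher and 1 (TEK) lower at day 10 than at day 0 in both genotypes, with medians of 2.23 in shScr and 2.15 in shIL1R cells. Of 4 tested epithelial markers 1 was lower in shScr cells at day 10 (median 0.31), and 3 were higher in shIL1R cells at day 10 (median 1.04) as at day 4 (median 1.15). For these counts, 32.5% of all tested genes were called higher at day 10 in shScr and 30.0% in shIL1R cells. In shIL1R cells at day 4 that share was 20.1%. The part of these markers in the day 10 results below was not tested. In such bulk RNA, fewer cells expressing a gene and less of it per cell cannot be told apart. Replicate 2 of shScr day 4 stood apart by its ribosomal precursor RNA45S5, at 3.41% of reads against 1.79% in replicate 1. That share was 1.34 to 1.47% in the 4 day 0 libraries and at least 2.51% in each of the 4 day 10 libraries, so it moved with the day, and its part in the changes of the members was not tested. The 2 shIL1R day 10 libraries differed most from each other (chi-square per degree of freedom 53.8, against 7.79 to 23.9 in the other groups).

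Among the subunits, RELA, the main transactivating subunit, moved least among those that rose. Its levels were 2947 and 2908 normalized counts in shScr and 2900 and 2812 in shIL1R cells at day 0, 3462 and 3439 against 3449 and 3295 at day 4, and 4449 and 4336 against 4637 and 3901 at day 10. RELA stood higher at each later day in both genotypes, and the genotypes overlapped at days 4 and 10. NFKB1, which encodes the precursor of the p50 subunit, was at 1424 and 1281 in shScr and 1337 and 1275 in shIL1R cells at day 0, 1473 and 1173 against 1189 and 1030 at day 4, and 1567 and 1572 against 1230 and 1038 at day 10. All 12 NFKB1 libraries lay within a range of 1.53-fold, with the genotypes apart at day 10.

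NFKB2 encodes the precursor of the p52 subunit, the partner of RELB in the non-canonical pathway. NFKB2 stood at 1275 and 1157 normalized counts in shScr and 1381 and 1332 in shIL1R cells at day 0, 1838 and 1699 against 1433 and 1085 at day 4, and 2816 and 2516 against 2007 and 1565 at day 10. Both shIL1R libraries lay above both shScr libraries at day 0 and below them on both later days. Of these differences only that at day 10 was called (day 0, 0.16, limma adjusted p = 0.825, and day 4, -0.50, 0.126). The difference between genotypes in the change from day 0 was not called for NFKB2. RELB was at 586 and 533 in shScr and 498 and 415 in shIL1R cells at day 0, 1038 and 785 against 730 and 614 at day 4, and 2108 and 1704 against 1554 and 889 at day 10. RELB stood higher at each later day in both genotypes, and its shIL1R libraries lay below its shScr libraries at days 0, 4 and 10. REL, a subunit best known from lymphocytes, was the scarcest member, at 117 and 129 in shScr and 119 and 131 in shIL1R cells at day 0, 118 and 82.3 against 91.8 and 66.4 at day 4, and 100.3 and 101 against 65.9 and 41.8 at day 10. REL was the only member whose day 10 levels lay below its day 0 levels in all libraries of both genotypes. In GENCODE v29 a non-coding transcript on the same strand shares 5702 exon bases with REL, so its counts are uncertain.

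NFKBIA, the inhibitor whose resynthesis ends a burst of NF-kB activity, was at 961 and 870 normalized counts in shScr and 865 and 671 in shIL1R cells at day 0. It reached 2123 and 1388 against 1487 and 679 at day 4, and 3386 and 2469 against 2880 and 1306 at day 10. The genotypes overlapped at both later days: on each, shIL1R replicate 1 lay between the shScr libraries and shIL1R replicate 2 lay below both. NFKBIZ encodes IkB-zeta, a nuclear cofactor needed for a subset of NF-kB targets such as IL6. It stood at 703 and 652 in shScr and 904 and 1046 in shIL1R cells at day 0, 1530 and 885 against 1504 and 1308 at day 4, and 1717 and 2104 against 917 and 489 at day 10. NFKBIZ was thus higher in both shIL1R libraries at day 0, overlapped at day 4 and was lower in both at day 10, where shIL1R cells were within or below their own day 0 range. TNFAIP3, a central brake on the pathway, was at 293 and 254 in shScr and 283 and 266 in shIL1R cells at day 0, 1896 and 609 against 865 and 258 at day 4, and 2437 and 2968 against 1385 and 334 at day 10. Its day 0 libraries were nearly equal, and the lower shIL1R library of each later day, at 258 and 334, lay near them.

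BIRC3, a ubiquitin ligase that protects from cell death and holds the non-canonical pathway in check, was at 500 and 512 normalized counts in shScr and 468 and 368 in shIL1R cells at day 0, 489 and 298 against 219 and 112 at day 4, and 2026 and 2179 against 739 and 163 at day 10. BIRC3 did not rise by day 4 in any library and then climbed in both shScr libraries, while 1 of the 2 shIL1R libraries ended below day 0. It had the widest span of the 10 genes, 19.5-fold from the lowest to the highest library. ZC3H12A stood at 175 and 134 in shScr and 155 and 181 in shIL1R cells at day 0, 377 and 346 against 192 and 165 at day 4, and 1885 and 1435 against 424 and 279 at day 10. Its replicates lay within 1.52-fold of each other in every group, and the genotypes were apart from day 4 on.

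**Figure D2:**
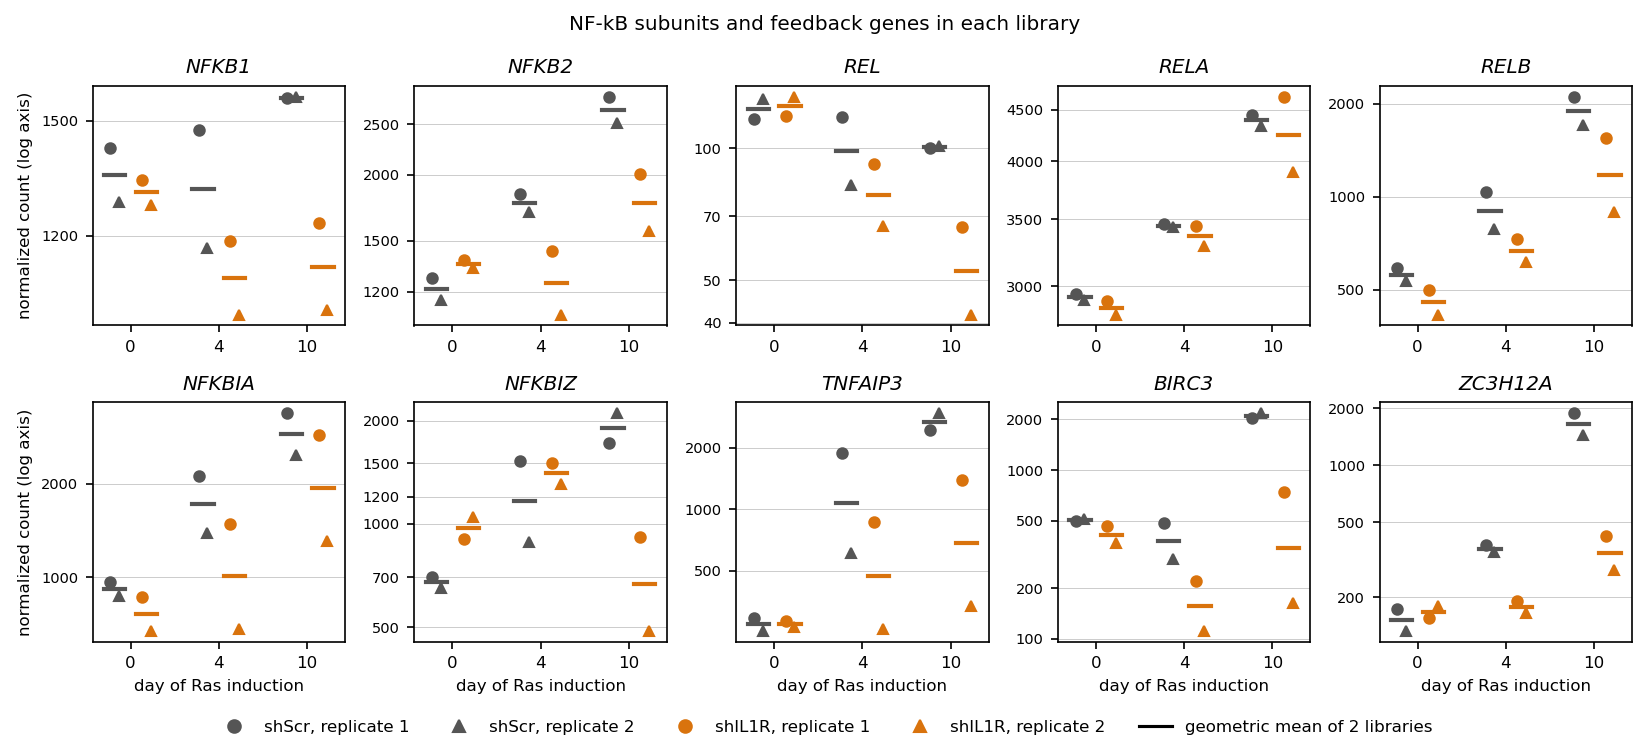
Normalized counts (log axes, a separate scale for each gene) of the 10 genes by days of induced Ras, 1 symbol a library (grey shScr, orange shIL1R, circles replicate 1, triangles replicate 2) and bars for the groups' geometric means. ZC3H12A, BIRC3 and NFKBIZ separate the genotypes at day 10, and RELA does not.

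To compare levels between genes, each was divided by the length of its longest coding transcript in GENCODE v29, which may differ from the annotation the authors counted on. In shScr cells at day 0 the order per kilobase ran from RELA (920 ± 8.66 normalized counts per kb, SD, n = 2) and NFKBIA (588 ± 41.1) over NFKB2 (356 ± 24.5), NFKB1 (331 ± 24.8), RELB (244 ± 16.3), NFKBIZ (173 ± 9.21) and BIRC3 (97.4 ± 1.71) to TNFAIP3 (57.7 ± 5.88), ZC3H12A (57.4 ± 10.8) and REL (10.9 ± 0.796). NFKB2 and NFKB1 overlapped there, as did TNFAIP3 and ZC3H12A, while the other neighbours did not. At day 10 in shScr cells NFKBIA led with 1879 ± 416 per kb, ahead of RELA with 1380 ± 24.9. RELB (831 ± 124) and NFKB2 (780 ± 62.1) overlapped, and ZC3H12A (618 ± 118) had passed NFKB1 (384 ± 0.805). In shIL1R cells at day 10 ZC3H12A was at 131 ± 38.4 per kb, below NFKB1 at 278 ± 33.2.

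The first question was how these genes changed over the days of Ras induction in control cells. No group was collected at a later day without Ras induction, so Ras and time in culture cannot be told apart. Changes are given on the scale log2(normalized count + 1), which understates those of low genes, with ± SE from one limma fit to the 12 libraries. A gene counted as called at an adjusted p under 0.05, the adjustment covering all 13924 tested genes. By day 4, ZC3H12A (1.24 ± 0.21, limma adjusted p = 0.00104), TNFAIP3 (1.97 ± 0.68, adjusted p = 0.0404), NFKBIZ (0.78 ± 0.28, adjusted p = 0.0484), RELB (0.69 ± 0.23, adjusted p = 0.0365), NFKB2 (0.54 ± 0.14, adjusted p = 0.0124) and RELA (0.24 ± 0.09, adjusted p = 0.0484) had risen. These were 6 of 10 members, against 19.4% of all tested genes called higher and 18.9% called lower, and the members' median was 0.62 against -0.01 for all tested genes. NFKBIA was at 0.91 ± 0.39 (adjusted p = 0.0921) and BIRC3 at -0.41 ± 0.54 (0.591). Of these, the ZC3H12A call held with any 1 library left out. TNFAIP3 was at 1.16 (limma adjusted p = 0.297) without replicate 1 of shScr day 4 and at 2.79 without replicate 2, the library rich in RNA45S5, whose part in the result was not tested. The TNFAIP3 call was also lost without either library of day 0 in either genotype or of shScr day 10 (adjusted p 0.0563 to 0.154), the RELB call without either shScr day 0 library or shScr day 4 replicate 1 (0.0928 to 0.233), and the NFKB2 call without shScr day 0 replicate 2 (0.0929) or shScr day 4 replicate 1 (0.0817). RELA was lost without any 1 library except those of shIL1R day 10 (0.0604 to 0.178), and NFKBIZ likewise, save that it held without shScr day 4 replicate 2 (0.0621 to 0.374). NFKBIA passed without either shIL1R day 10 library, which lie outside this comparison, and calls over all tested genes rose there too.

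By day 10 in shScr cells 8 of the 10 genes had risen, against 32.5% of all tested genes called higher and 31.3% called lower. ZC3H12A had the largest change among the members (3.42 ± 0.21, limma adjusted p = 2.07e-07), then TNFAIP3 (3.30 ± 0.68, adjusted p = 0.0014), BIRC3 (2.05 ± 0.54, adjusted p = 0.00646), RELB (1.76 ± 0.23, adjusted p = 5.6e-05), NFKBIA (1.66 ± 0.39, adjusted p = 0.00342), NFKBIZ (1.49 ± 0.28, adjusted p = 0.000774), NFKB2 (1.13 ± 0.14, adjusted p = 4.24e-05) and RELA (0.59 ± 0.09, adjusted p = 0.00012). All 5 feedback genes were thus called, and of the subunits NFKB1 (0.22 ± 0.13, adjusted p = 0.155) and REL (-0.28 ± 0.26, 0.352) were not. The median over the members was 1.57, against 0.01 over all tested genes. The count stayed at 8 with each of the 12 libraries left out in turn.

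From day 4 to day 10 the shScr cells gained further in 5 genes, against 21.7% of all tested genes called higher and 22.4% lower. BIRC3 led with 2.46 ± 0.54 (limma adjusted p = 0.00402), followed by ZC3H12A (2.18 ± 0.21, adjusted p = 2.93e-05), RELB (1.07 ± 0.23, adjusted p = 0.00364), NFKB2 (0.59 ± 0.14, adjusted p = 0.00689) and RELA (0.35 ± 0.09, adjusted p = 0.00716). BIRC3 therefore gained its whole rise in the later interval, whereas TNFAIP3 was at 1.32 ± 0.68 (adjusted p = 0.138), NFKBIZ at 0.71 ± 0.28 (0.0622) and NFKBIA at 0.75 ± 0.39 (0.145) there. The NFKB2 call was lost without shScr day 4 replicate 2 (limma adjusted p = 0.0504) or shScr day 10 replicate 1 (0.0567). Without shScr day 4 replicate 1, NFKBIZ was at 1.10 and NFKB1 at 0.42, and both passed. NFKBIZ also passed without either shIL1R day 10 library, which lie outside this comparison, and calls over all tested genes rose there too.

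In shIL1R cells by day 4 only RELA was called higher (0.24 ± 0.09, limma adjusted p = 0.0446), 1 of 10 against 20.1% of all tested genes called higher and 20.3% lower, and that call was lost without any 1 library other than those of shIL1R day 10 (0.0566 to 0.181). RELB was at 0.56 ± 0.23 (adjusted p = 0.0767), REL at -0.67 ± 0.26 (0.0583) and BIRC3 at -1.40 ± 0.54 (0.0599). ZC3H12A stood at 0.09 ± 0.21 (0.774). RELB, REL and BIRC3 passed in the fits without replicate 1 or 2 of shIL1R day 10, libraries outside this comparison. Calls over all tested genes rose in those fits too. By day 10 RELB (1.37 ± 0.23, limma adjusted p = 0.000408), NFKBIA (1.35 ± 0.39, adjusted p = 0.012), ZC3H12A (1.03 ± 0.21, adjusted p = 0.00156), RELA (0.57 ± 0.09, adjusted p = 0.000159) and NFKB2 (0.39 ± 0.14, adjusted p = 0.0372) had risen and REL (-1.23 ± 0.26, adjusted p = 0.00162) had fallen, against 30.0% of all tested genes called higher and 30.3% lower. TNFAIP3 (1.31 ± 0.68, adjusted p = 0.119), NFKBIZ (-0.54 ± 0.28, 0.121) and BIRC3 (-0.26 ± 0.54, 0.698) did not pass. These 3 rested on single libraries: BIRC3 was at -1.35 (limma adjusted p = 0.00629) without replicate 1 of shIL1R day 10 and at 0.83 (0.0552) without replicate 2, TNFAIP3 at 0.28 (0.728) and 2.33 (0.00848), and NFKBIZ at -0.99 (0.00574) and -0.08 (0.785). The NFKBIA call was lost without replicate 2 of shIL1R day 0 (0.0775) or replicate 1 of shIL1R day 10 (0.105), and the NFKB2 call without either shIL1R day 0 library (0.0922 and 0.136) or replicate 1 of shIL1R day 10 (0.25).

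**Figure D3:**
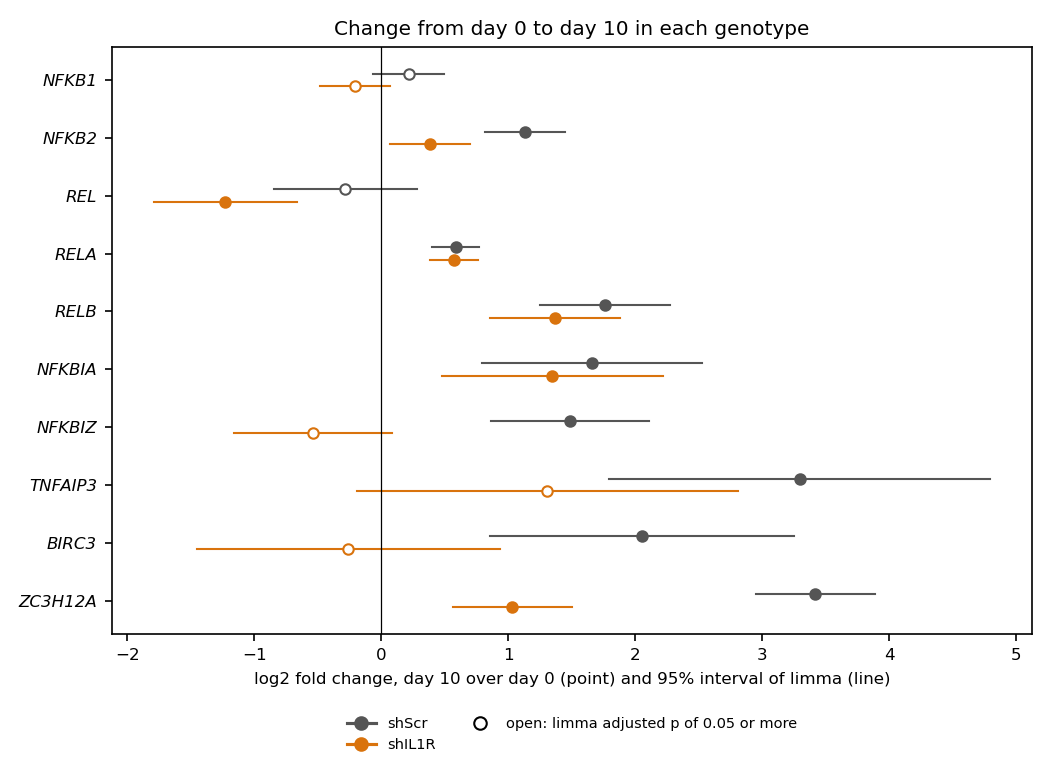
Log2 fold change from day 0 to day 10 of the 10 genes in shScr (grey) and shIL1R (orange) cells, as points with 95% intervals of the limma fit, filled where the adjusted p was below 0.05. RELA was at 0.59 and 0.57, RELB at 1.76 and 1.37, and ZC3H12A reached 3.42 in shScr and 1.03 in shIL1R cells.

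The main comparison of the design set the genotypes against each other on each day. At day 0 none of the 10 genes was called by limma, none by edgeR and DESeq2 on recovered reads, and 0 had an unadjusted limma p below 0.05. The background there was 0.0287% of all tested genes higher and 0.0359% lower. The day 0 differences ran from -0.30 ± 0.23 (RELB) to 0.52 ± 0.28 (NFKBIZ, limma adjusted p = 0.655). At day 4 limma and edgeR called 0 members and DESeq2 1 (ZC3H12A, lower, adjusted p = 0.00172), with 3 at an unadjusted limma p below 0.05, against 0.0431% of all tested genes called higher and 0.237% lower. ZC3H12A was at -1.02 ± 0.21 (limma adjusted p = 0.0717), BIRC3 at -1.28 ± 0.54 (0.249) and NFKB2 at -0.50 ± 0.14 (0.126). These 3 passed in the limma fits without replicate 1 or 2 of shIL1R day 10, libraries outside this comparison. Calls over all tested genes rose in those fits too, so passing there is not particular to these members.

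At day 10 all 10 members had a lower mean in shIL1R than in shScr cells and 6 were called, against 4.85% of all tested genes called lower and 4.37% called higher. BIRC3 (-2.60 ± 0.54, limma adjusted p = 0.0171), ZC3H12A (-2.25 ± 0.21, adjusted p = 0.00052) and NFKBIZ (-1.50 ± 0.28, adjusted p = 0.011) were lowered most among those called, and REL (-0.93 ± 0.26, adjusted p = 0.0468), NFKB2 (-0.59 ± 0.14, adjusted p = 0.031) and NFKB1 (-0.47 ± 0.13, adjusted p = 0.0419) less. TNFAIP3 was at -1.98 ± 0.68 (adjusted p = 0.0923), RELB at -0.69 ± 0.23 (0.0876) and NFKBIA at -0.58 ± 0.39 (0.375). RELA was at -0.05 ± 0.09 (0.767), with a 95% interval of the difference from -0.23 to 0.14. The median over the members was -0.81, against -0.00338 over all tested genes. The ZC3H12A call held with any 1 library left out, with values from -2.56 to -1.95. BIRC3 was at -3.68 without replicate 1 and -1.51 (limma adjusted p = 0.0359) without replicate 2 of shIL1R day 10, and missed without shScr day 10 replicate 1 (0.0531) or 2 (0.141), as NFKBIZ did without replicate 2 of shScr day 10 (0.12). The NFKB1, NFKB2 and REL calls were lost without either library of shScr day 0, shIL1R day 0 or shScr day 10 and without replicate 2 of shIL1R day 10 (0.0647 to 0.221, 0.051 to 0.13 and 0.0714 to 0.235), and REL also without either library of shScr day 4 or replicate 1 of shIL1R day 4 (0.0502 to 0.0514). RELB, NFKBIA and TNFAIP3 turned on the shIL1R day 10 pair: without its replicate 1 they were at -1.09 (limma adjusted p = 0.00237), -1.15 (0.0478) and -3.01 (0.00678), and without its replicate 2 at -0.29 (0.402), -0.01 (0.996) and -0.96 (0.409). A fit of the day 10 libraries alone called 1 member and, over all genes, 74 of 13347. The SEs and the interval above use 1 spread per gene, shared by all 6 groups. The shIL1R day 10 pair differed most (chi-square per degree of freedom 53.8). In comparisons with that group the SEs, intervals and p-values of this fit may therefore understate the spread.

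**Figure D4:**
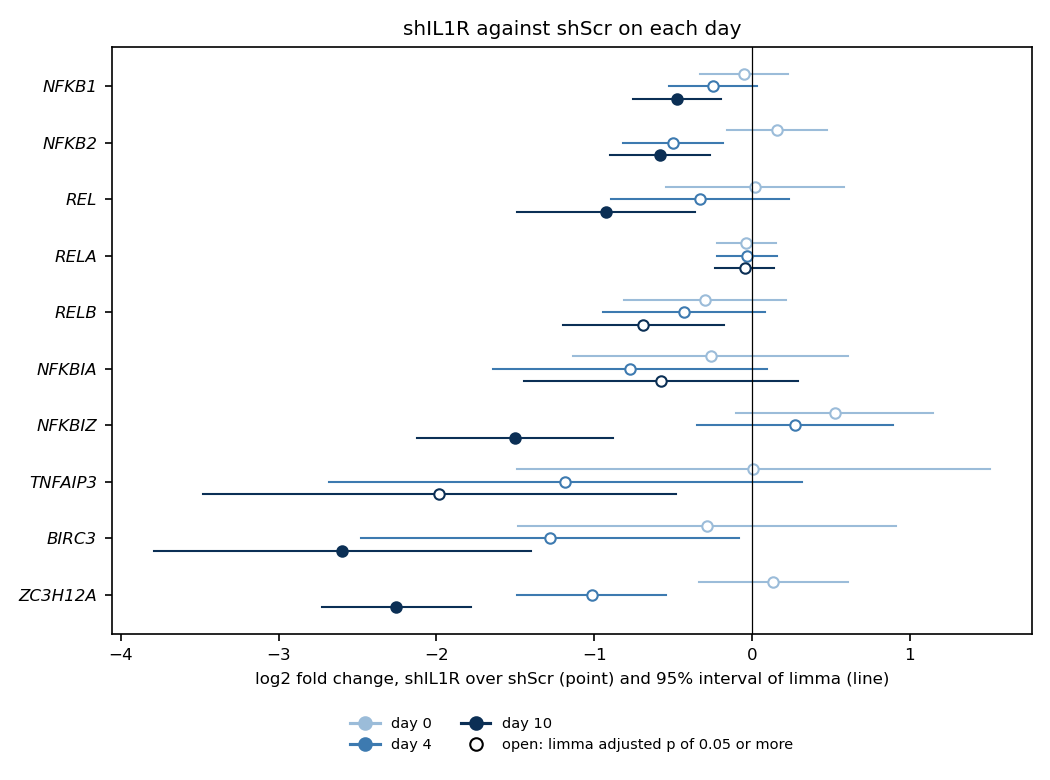
Log2 fold change of shIL1R over shScr cells at days 0, 4 and 10 for the 10 genes, as points with 95% intervals of the limma fit, filled where the adjusted p was below 0.05. The filled points all belong to day 10 and lie below 0, and the 3 intervals of RELA all include 0.

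Whether the change over the days of Ras induction differed between genotypes was tested as the difference of the changes from day 0, shIL1R minus shScr. For day 10, ZC3H12A (-2.39 ± 0.30, limma adjusted p = 0.0044) and NFKBIZ (-2.03 ± 0.40, adjusted p = 0.0283) were called, 2 of 10 against 1.54% of all tested genes called lower and 0.876% higher. For ZC3H12A the change was 3.42 in shScr and 1.03 in shIL1R cells, and for NFKBIZ 1.49 against -0.54. BIRC3 (-2.31 ± 0.77, adjusted p = 0.14), TNFAIP3 (-1.99 ± 0.96, 0.291), REL (-0.95 ± 0.36, 0.191) and NFKB2 (-0.75 ± 0.20, 0.0826) missed, and RELA was at -0.01 ± 0.12 (0.976). The NFKBIZ call was lost without either day 0 library of either genotype (limma adjusted p 0.0624 to 0.137) or replicate 2 of shScr day 10 (0.137). Without replicate 1 of shIL1R day 10 BIRC3 was at -3.40 and TNFAIP3 at -3.01, and without its replicate 2 at -1.22 and -0.97. Without replicate 1 the calls rose among the members and over all tested genes alike. For day 4 limma, edgeR and DESeq2 called 0 members, with 2 at an unadjusted limma p below 0.05, and the background was 0.0287% of all tested genes called lower and 0% higher.

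Replicate 2 lay below replicate 1 for all 10 genes in 3 groups: shScr day 4, shIL1R day 4 and shIL1R day 10. Over all tested genes 54.3%, 50.2% and 50.6% lay lower in replicate 2 of those groups. The members' median difference, replicate 2 minus replicate 1, was -0.46, -0.33 and -0.73 on the log2 scale, and -0.14, -0.06 and -0.02 in shScr day 0, shIL1R day 0 and shScr day 10. In shIL1R day 10 the ratio of replicate 1 to replicate 2 ran from 1.18 (NFKB1) and 1.19 (RELA) to 4.15 (TNFAIP3) and 4.54 (BIRC3). At day 4 the TNFAIP3 ratio was 3.12 in shScr and 3.35 in shIL1R cells. The ordering of the shIL1R replicates in IL1R1 itself was 731 over 378 for day 0, 272 over 86.4 for day 4, and 295 over 280 for day 10, in normalized counts. The part of the hairpin, the culture or the library in these differences was not tested.

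Other genes of the pathway were counted from lists that, like the members, were chosen with earlier results of these data known. Their counts and medians below are therefore descriptions. Among the 4 other members of the IkB family, NFKBIE (IkB-epsilon) rose in shScr cells by day 10 (1.96 ± 0.27, limma adjusted p = 7.71e-05), from 341 and 321 to 1285 and 1287 normalized counts, and NFKBIB (IkB-beta) rose by 0.498 ± 0.12 (adjusted p = 0.00334), while BCL3 (0.19 ± 0.16, 0.308) and NFKBID (-0.05 ± 0.25, 0.868) did not pass. Between genotypes at day 10 none of the 4 was called: NFKBIE was at -0.71 ± 0.27 (adjusted p = 0.121), BCL3 at 0.35 ± 0.16 (0.171), NFKBIB at -0.23 ± 0.12 (0.238) and NFKBID at 0.04 ± 0.25 (0.94). Without shIL1R day 10 replicate 1, NFKBIE was at -1.26 (0.00041) and NFKBIB at -0.39 (0.0242), and both passed.

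Of 25 kinases and adaptors that lead to NF-kB, 10 were higher and 7 lower in shScr cells at day 10 than at day 0, with a median of 0.11, where 32.5% of all tested genes were called higher and 31.3% lower. These shares are near those of all genes. IRAK2, a kinase-like adaptor of the interleukin-1 receptor, rose most on that list, from 390 and 496 to 3305 and 3188 normalized counts (2.88 ± 0.31), TRADD, an adaptor of the tumour necrosis factor receptor, rose by 1.05 ± 0.14, and the receptor kinase IRAK4 fell from 553 and 555 to 283 and 245 (-1.07 ± 0.11). Between genotypes at day 10, 3 were lower and 3 higher in shIL1R cells, against 4.85% and 4.37% of all tested genes. IRAK2 (-1.35 ± 0.31, limma adjusted p = 0.0255) and the adaptor TRAF1 (-1.15 ± 0.20, adjusted p = 0.00744) were lower, and MAP3K14, the kinase that starts the non-canonical pathway, was higher (0.83 ± 0.19, adjusted p = 0.0261), at 131 and 181 against 88.5 and 84.1. The IRAK2 and MAP3K14 calls were lost without either shScr day 10 library or shIL1R day 10 replicate 2 (limma adjusted p 0.0626 to 0.173).

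Of 21 other genes listed as negative regulators, whose role in these cells was not tested, 13 were higher and 2 lower at day 10 in shScr cells. Of all tested genes 32.5% were called higher and 31.3% lower. Among them the ubiquitin ligase PELI1 was at 1.79 ± 0.23, TNIP1, a partner of TNFAIP3, at 1.44 ± 0.18 with 16002 and 16067 against 5846 and 5936 normalized counts, and TOLLIP, which binds interleukin-1 receptor kinases, at 1.30 ± 0.08. At day 10, 5 were lower and 2 higher in shIL1R cells, against 4.85% and 4.37% of all tested genes. IRAK3, an inhibitor of interleukin-1 receptor signalling, stood at 112 and 88.0 against 496 and 462 (-2.26 ± 0.15, limma adjusted p = 3.76e-05), and ZC3H12C, a relative of ZC3H12A, at 806 and 604 against 1440 and 1743 (-1.18 ± 0.18, adjusted p = 0.00525). TNIP3, another TNFAIP3 partner, was also called (limma adjusted p = 0.00592) but was low throughout, with 13.0 and 11.1 normalized counts in shScr and 1.20 and 0 in shIL1R cells. The ZC3H12C and TNIP3 calls were lost without shScr day 10 replicate 2 (limma adjusted p = 0.0678 and 0.0593), and the IRAK3 call held with any 1 library left out.

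Of 23 tested NF-kB targets outside the 10 genes (24 listed), 19 were higher and 1 lower in shScr cells at day 10, with a median of 3.19, where 32.5% of all tested genes were called higher and 31.3% lower. CCL20, a chemokine, was at 0 in both shScr day 0 libraries and at 345 and 569 normalized counts at day 10, at least 174-fold higher against a floor of 3 reads per library. The growth factor gene CSF2 (7.67 ± 0.70) and the chemokine CXCL8 (6.21 ± 0.66) were the next. Setting CCL20 at its bound left the median at 3.19. At day 10, 14 of these targets were lower and 1 higher in shIL1R cells, against 4.85% and 4.37% of all tested genes, with a median of -1.86, and CCL20 (-5.07 ± 0.63), CXCL1 (-4.28 ± 0.53) and CXCL8 (-4.27 ± 0.66) were lowest. Their sizes turned on the shIL1R day 10 pair, in which CXCL8 was at 5272 and 884 normalized counts, against 38965 and 44346 in shScr cells. Without replicate 1 or replicate 2 of that pair CXCL8 was at -5.55 or -2.98, CXCL1 at -5.34 or -3.23 and CCL20 at -6.06 or -4.08, and all 3 kept their call. The CXCL8 call was lost without shScr day 10 replicate 2 (limma adjusted p = 0.0627). The same 23 genes had a median of 1.03 at day 4 (0.85 with CCL20 at its bound) in shScr cells. The medians over the targets were thus larger in size than those over the 10 regulators at day 10, a difference that was not tested.

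**Figure D5:**
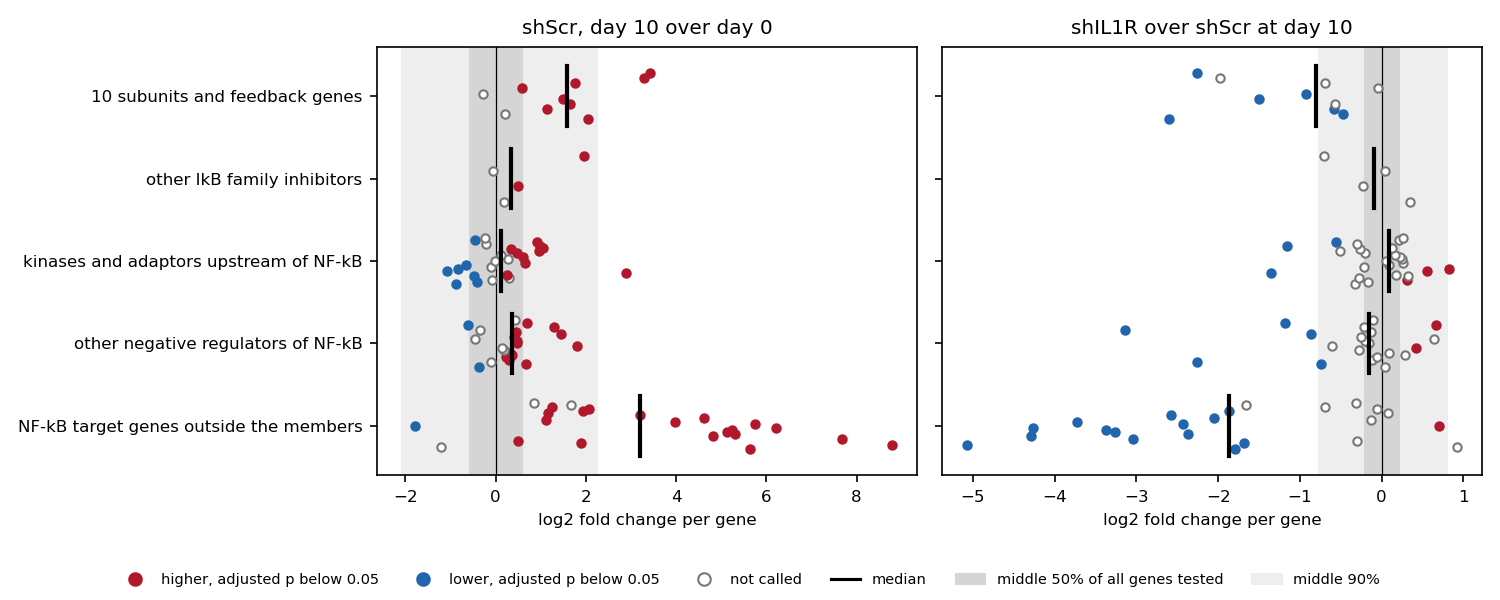
Log2 fold change of each tested gene of the pathway lists in shScr cells at day 10 over day 0 (left) and in shIL1R over shScr cells at day 10 (right), with a black bar at each list's median and grey bands for the middle 50% and 90% of all 13924 tested genes. The targets have medians of 3.19 and -1.86 and the upstream kinases and adaptors medians of 0.11 and 0.09.

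For each of the 10 genes the tested genes with the most similar profile were found by the root mean square difference of log2 values over the 12 libraries, each centred on its own mean. RELA had the closest neighbours, R3HDM4 (0.0441) and WDR45B (0.0486), and NFKB1 the next, CDV3 (0.0875) and PAQR3 (0.0979). For RELB they were DAAM1 (0.167) and NFKBIE (0.211), and NFKBIE (0.269) was also among the 2 nearest of NFKBIA, after LACC1 (0.264). NFKB2 lay nearest to NAB1 (0.143) and AGTRAP (0.146), REL to APLF (0.159) and ARHGAP42 (0.199), and NFKBIZ to SLC4A7 (0.279) and P4HA2-AS1 (0.295). The genes with wide ranges had looser neighbours. ZC3H12A lay nearest to HIST2H2BE (0.313), which has near-identical copies, and AMPD3 (0.346). BIRC3 lay nearest to PILRA (0.37) and RGS5 (0.455), and TNFAIP3 to AGTR1 (0.41) and LINC01629 (0.417). PILRA, AGTR1 and LINC01629 were low, with group means of at most 12.4, 17.5 and 26.0 normalized counts. Counting error and the added 1 are thus part of their profiles. Among the members RELB and NFKBIA were the most alike pair (0.229) and REL and TNFAIP3 the least (1.40). These values describe the same 12 libraries and share their day and genotype structure.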

How the data were processed

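RNA of 12 libraries was analysed from the deposited table of normalized counts per gene, which is a signal, reads scaled by a factor for each library. The authors made this signal; the submitters' processing notes name TopHat, HTSeq, DESeq2 and the build hg19, with no role or order. Versions, annotation and strand setting are not given in the sources used here. Dividing each value by its library's smallest value above 0 gave whole reads for 100% of values (within 0.001), so reads were recovered. The filter kept 13924 of 27106 genes, those that reached 10 normalized counts in 2 or more libraries. limma 3.58.1 (R 4.3.3) fitted log2(value + 1) by 6 group means, with moderated variances that followed a trend in level (6 residual and 4.98 prior degrees of freedom), and 10 contrasts were tested two-sided. Benjamini-Hochberg adjustment ran over all tested genes. The code was tested on simulated data.

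Alternatives were pseudocounts of 0.5 and 5, filters of 0 and 50, rescaling by TMM, the replicate number as a block, the compared groups alone, tests of the recovered reads by edgeR 4.0.16 and by DESeq2 1.42.0, and each library left out. Leaving out replicate 2 of shScr day 4 together with replicate 2 of shIL1R day 10 was added after seeing the data. All 10 members are named, with up to 3 called genes of the largest change per pathway list in 2 comparisons, all 4 other IkB genes, IL1R1 and the 2 nearest profiles of each member. The members and lists were chosen with earlier results of these data known. Promoter sequences are from RefSeq (GRCh38.p14), transcript lengths from GENCODE v29, and both may differ from the annotation behind the authors' counts. Without a stated strand setting, reads of a gene and of an antisense partner cannot be told apart.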

Additional observations from a re-analysis of the deposited data

Results flagged for a closer look

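The change from day 0 to day 10 of Ras induction differed between genotypes, by a test of the difference itself, in ZC3H12A and NFKBIZ. ZC3H12A rose by day 10 in both genotypes but less in shIL1R cells, with a difference of the changes of -2.39 on the log2 scale (limma adjusted p = 0.0044). NFKBIZ rose in shScr cells (1.49) and was at -0.54 in shIL1R cells, where it missed the threshold. The difference was -2.03 (limma adjusted p = 0.0283), and its call was lost under 6 of the 22 alternatives. These were no filter, each fit without a day 0 library and that without shScr day 10 replicate 2. The day 0 level of NFKBIZ was higher in both shIL1R libraries (0.52), which enters the difference of -2.03. That day 0 gap was not called in the main fit but passed in the fit of the day 0 libraries alone (limma adjusted p = 0.0146).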

How the results depend on the processing

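None of the 34 called pairs of member and comparison changed direction under the 22 alternatives, 19 of them stayed called under all, and 15 lost their call under at least 1. Of the 66 uncalled pairs 24 passed under at least 1 alternative and 20 changed sign. Without a filter the called members numbered 2 in shScr day 4 against day 0, 0 in shIL1R day 4 against day 0 and 1 for the day 10 interaction. Over all 20762 genes tested there, 4924, 5207 and 216 were called. In fits of the compared groups alone the called members were 8 in shScr day 10 against day 4 and 5 in shIL1R day 4 against day 0. Between genotypes they were 1 at day 0 (NFKBIZ, higher in shIL1R cells) and 1 at day 10. Over all genes those 4 fits called 6204 of 13296, 6163 of 13165, 457 of 13128 and 74 of 13347. DESeq2 called 1 between genotypes at day 4. Without shScr day 4 replicate 2 and shIL1R day 10 replicate 2 together, 5 were called in shIL1R day 4 against day 0 and 3 between genotypes at day 10, and BIRC3 in shIL1R day 10 against day 0 turned from -0.26 to 0.83 (limma adjusted p = 0.0364, against -1.35 without shIL1R day 10 replicate 1 alone). With each library left out in turn the counts ran from 1 to 7 in shScr day 4 against day 0, 0 to 4 in shIL1R day 4 against day 0, 0 to 3 between genotypes at day 4, 1 to 9 at day 10 and 1 to 6 for the day 10 interaction. Calls over all tested genes also moved in the fits with libraries left out. The replicate block moved the member counts to 4 (2 higher, 2 lower) in shIL1R day 4 against day 0, 8 between genotypes at day 10 and 3 for the day 10 interaction. Over all 13924 tested genes it called 5586, 1267 and 312. Deviations of same-numbered libraries from their group means had correlations from -0.10 to 0.23 over the 15 pairs of groups. The largest were within shIL1R, at 0.23 for days 0 and 4 and 0.20 for days 4 and 10. The main fit did not use the numbers as pairs, and the labels do not say whether they are. Over all tested genes edgeR called 1298 and DESeq2 1694 between genotypes at day 10, limma 1283, the compared groups alone 74, and limma 3519 without shIL1R day 10 replicate 1, 621 without its replicate 2 and 111 without shScr day 10 replicate 2. At day 4 limma called 39 and DESeq2 469, and for the day 10 interaction 336 and 802. REL rested on 37 to 155 reads a library, so counting error is part of its spread.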
